A study of Mus musculus with 24 samples.

Results

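The response of Perk KO mouse neurons to tunicamycin (TM) was measured by RNA sequencing in 3 TM-treated and 3 control cultures labelled as biological replicates, 6 of the 24 libraries of the series. Members were chosen by the cell type, genotype and treatment in the labels, and all genes counted in these libraries were considered. The labels give the cells as neurons, with no brain region. The cells were cultured from mice with both Perk alleles flanked by loxP sites (Perk loxP/loxP), and all cultures, controls included, had been transduced with a lentivirus. Perk KO neurons received active Cre-recombinase in vitro, which removes the sequence between loxP sites, and WT neurons received the inactive form ΔCre. TM, at 5 µg/mL, was left on the cultures for 24 hours from day in vitro 14 per the treatment protocol, while the design text allows a shorter time, and control cultures received an equal volume of the solvent DMSO. For comparison, 6 libraries of WT neurons and 6 of Perk KO astrocytes, each with 3 TM-treated and 3 control cultures treated the same way, were used. The labels do not say whether replicates came from separate animals, so p-values measure the spread between these cultures, and the labels do not give the share of cells that had recombined.

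TM blocks the first step of N-linked glycosylation, so that unfolded glycoproteins accumulate in the endoplasmic reticulum (ER). Cells answer with the unfolded protein response (UPR), which starts from the ER membrane sensors PERK (the gene is Eif2ak3), IRE1 (Ern1) and ATF6. PERK phosphorylates the initiation factor eIF2, which lowers protein synthesis and favours translation of the transcription factor ATF4. IRE1 splices the mRNA of the transcription factor XBP1, and ATF6 is released by proteases as a transcription factor, and these drive ER chaperones and the disposal of misfolded proteins. Deletion of Perk takes away the PERK branch, while other eIF2 kinases, IRE1 and ATF6 remain encoded.

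Genes received 25.9, 17.2 and 19.5 M counts in the TM-treated Perk KO libraries and 22.5, 17.9 and 18.2 M counts in the control Perk KO libraries. The unit of level is CPM, read counts set to a common library size by TMM over the 12 neuron libraries, in the order of replicates 1, 2 and 3. Changes are log2 fold changes of TM over control ± standard error (n = 3 and 3) with p-values of the quasi-likelihood test of edgeR, adjusted by Benjamini-Hochberg over all genes tested, and a gene is said to rise or fall where the adjusted p was under 0.05. The TM-treated libraries were less alike than the control libraries. On the first principal component, which held 61% of the variance, TM replicates 1, 2 and 3 lay at 44.2, 12.1 and 34.4 and controls at -30.6, -27.2 and -33.0, so that TM replicate 2 lay nearest to the controls. Over the genes called higher, the median log2 difference from the control mean was 0.75, 0.59 and 0.68 in TM replicates 1, 2 and 3, and over the genes called lower it was -0.71, -0.57 and -0.65. The sum of 12 neuron markers was 3384, 4082 and 3766 CPM in TM-treated and 5929, 5465 and 5677 CPM in control Perk KO neurons. Astrocyte markers, 15 in all, summed to 7512, 6096 and 6016 CPM with TM and 6416, 6573 and 6383 CPM without, so the cultures held transcripts of both cell types. In such bulk cultures, fewer cells of a type and less RNA per cell cannot be told apart.

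Counts on Eif2ak3 (ENSMUSG00000031668, chromosome 6, positions 70844515 to 70905245, GRCm38) went with the genotype labels in all 12 neuron libraries. The gene had 9.53, 11.9 and 15.9 CPM in TM-treated Perk KO neurons, against 5.63, 5.08 and 5.03 CPM in control Perk KO neurons. In WT neurons it had 140, 134 and 148 CPM with TM and 36.8, 35.7 and 31.6 CPM without. The remaining Perk KO signal rose by 1.24 ± 0.21 (adjusted p = 0.00559). Counts cover the whole gene, and do not resolve the excised part.

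TM changed a broad part of the transcriptome of Perk KO neurons. Of 16197 genes tested, 3858 passed the test (23.8%), of which 2114 rose (13.1%) and 1744 fell (10.8%). Among these, 607 rose (3.75%) and 429 fell (2.65%) by more than 2-fold, and the median change of all genes tested was 0.02. Rises were ranked among protein-coding genes above a minimum mean count over both groups. The largest were those of the stress transcription factor Atf3, the pattern recognition receptor Tlr2, the T cell co-stimulatory ligand Icosl and the chemokine Ccl2. Large falls were seen for the scavenger receptor Stab1 and the potassium channel subunit Kcnv1. Icosl averaged 8.90 CPM with TM and 0.846 CPM in controls, and Stab1 1.31 CPM with TM and 12.1 CPM in controls. Icosl and Stab1 passed that minimum mainly through the group where they were high, so their rank is not read as a result. The authors' deposited table calls 4058 of 28814 genes (14.1%), of which 3671 were also called here, all with the same sign. The number of calls depended on single libraries. It was 5844 without TM replicate 2 and 2109 without TM replicate 3, and 1987, 2053 and 1972 without control replicate 1, 2 or 3.

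The transcription factors of the UPR rose in Perk KO neurons. Of 15 sensors and transcription factors tested, 12 rose and 0 fell, with a median of 0.79. Atf3 (ENSMUSG00000026628), which is induced by ATF4 and other stress factors, had 138, 132 and 157 CPM in TM-treated neurons, against 7.16, 8.55 and 8.69 CPM in controls. It rose by 4.13 ± 0.13 (17.5-fold, adjusted p = 1.91e-05). Ddit3, which encodes CHOP, a factor linked to stress-induced cell death, had 334, 257 and 278 CPM with TM and 45.2, 33.0 and 33.7 CPM without, a rise of 2.96 ± 0.16 (7.76-fold, adjusted p = 0.000151). Every TM library lay well above every control library for both, which are among the 12 largest rises, named only where the groups did not overlap. Of all genes tested, 43% did not overlap between the groups. Atf4 itself had 408, 348 and 432 CPM with TM, against 222, 198 and 189 CPM in controls, and rose by 0.96 ± 0.12 (adjusted p = 0.00139). Xbp1, the target of IRE1, had 147, 119 and 141 CPM with TM and 66.9, 63.5 and 59.2 CPM without (1.10 ± 0.11, adjusted p = 0.000752). Gene counts do not tell spliced from unspliced Xbp1. Atf6 had 99.2, 121 and 111 CPM with TM, against 64.3, 61.7 and 64.9 CPM (0.79 ± 0.10, adjusted p = 0.00163). Atf5, which ATF4 and CHOP control, rose by 1.14 ± 0.13 (adjusted p = 0.0013). The sensor Ern1 was close to the threshold, with 11.6, 17 and 16.7 CPM in TM-treated and 9.14, 9.66 and 11 CPM in control neurons (0.60 ± 0.18, adjusted p = 0.046), and its call was lost with the GC correction and without any 1 library other than TM replicate 1. Atf6b (0.10) and the proteases that release ATF6, Mbtps1 (0.19) and Mbtps2 (-0.18), did not pass.

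Genes of the eIF2 kinases, eIF2 and eIF2B moved little. Of 15 tested, 2 rose and 1 fell, with a median of 0.01, where 13.1% of all genes tested rose and 10.8% fell. Apart from Eif2ak3, the riser was Ppp1r15a, which encodes GADD34, the stress-induced phosphatase subunit that reverses eIF2 phosphorylation. It had 149, 143 and 155 CPM in TM-treated neurons, against 35.4, 31.1 and 35 CPM in controls (2.14 ± 0.10, adjusted p = 8.23e-05). The other eIF2 kinases did not pass, with changes of 0.17 for Eif2ak4 (GCN2), -0.04 for Eif2ak1 (HRI) and -0.77 for Eif2ak2 (PKR). Eif2s1, which encodes the phosphorylated subunit itself, fell by 0.47 on the log2 scale (adjusted p = 0.0152), a call that was lost without TM replicate 3 or any control library and with a correction for GC content, where the value was -0.19 (adjusted p = 0.37).

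**Figure D1:**
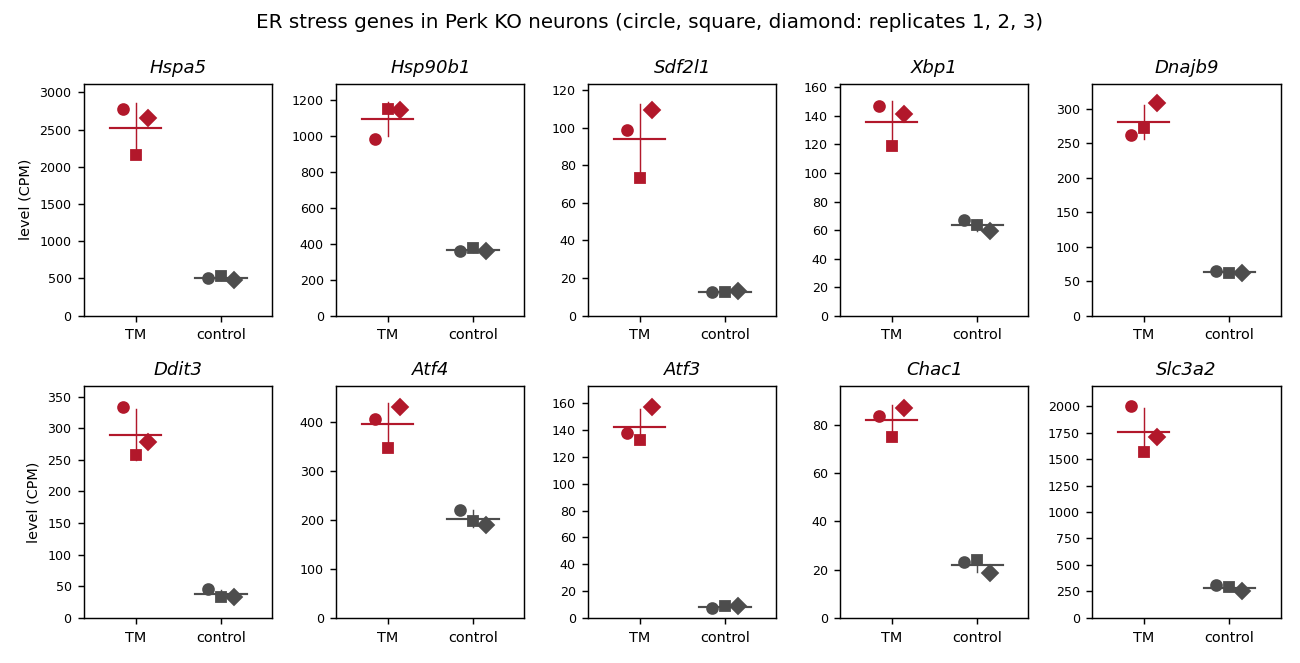
Levels (CPM, linear axis from 0) of 10 ER stress genes in the 3 TM-treated (red, left) and 3 control (grey, right) libraries of Perk KO neurons, with the marker shape giving the replicate, the horizontal line the mean and the vertical line 1 SD. In each panel the TM libraries lie above the control libraries, by the widest ratio for Atf3 (17.5-fold) and the narrowest for Atf4. Over all genes tested, 43% did not overlap between the groups.

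Genes known as targets of ATF4 and CHOP rose almost without exception. Of 19 tested, 18 rose and 0 fell, with a median of 1.14, and Vldlr (0.13) did not pass. Trib3, a pseudokinase that feeds back on ATF4, had 18.7, 20.9 and 20 CPM in TM-treated neurons, against 5.13, 3.57 and 3.99 CPM in controls (2.22 ± 0.17, adjusted p = 0.000313). Chac1, which degrades glutathione, had 83.5, 74.9 and 87 CPM with TM and 23.2, 24 and 18.7 CPM without (1.89 ± 0.13, adjusted p = 0.000202). Bbc3, which encodes the pro-apoptotic protein PUMA, had 94.6, 118 and 119 CPM with TM and 27.3, 27.3 and 27.4 CPM without (2.02 ± 0.12, adjusted p = 0.000151). Sesn2, a restraint on the growth kinase mTORC1, rose by 1.52 ± 0.10 (adjusted p = 0.000202). The stress hormone Gdf15 rose by 0.83 and the death receptor Tnfrsf10b by 1.14. Nupr1 (0.62) and Cebpg (0.63) had the smallest rises that passed.

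Most genes of amino acid transport and synthesis, a programme classically driven by ATF4, also rose. Of 11 amino acid transporters tested, 10 rose and 0 fell, with a median of 1.10. Slc3a2, the heavy chain shared by several transporters, had 1999, 1568 and 1706 CPM in TM-treated neurons, against 307, 288 and 251 CPM in controls (2.64 ± 0.14, 6.23-fold, adjusted p = 0.000151). Its partner Slc7a5 had 455, 483 and 459 CPM with TM and 183, 182 and 170 CPM without (1.38 ± 0.09, adjusted p = 0.000191). The cationic amino acid carrier Slc7a1 rose by 1.52 ± 0.09 and the glycine transporter Slc6a9 by 1.44 ± 0.12. Of 14 enzymes that make amino acids or carry one-carbon units, 11 rose and 0 fell, with a median of 0.75. Shmt2, the mitochondrial serine to glycine enzyme, had 104, 87.9 and 101 CPM with TM and 38.4, 33.8 and 33.7 CPM without (1.47 ± 0.11, adjusted p = 0.000313). Asparagine synthetase, Asns, had 329, 247 and 268 CPM with TM, against 181, 163 and 159 CPM (0.75 ± 0.13, adjusted p = 0.00527). Cytosolic aminoacyl-tRNA synthetases, which load tRNAs, moved less. Of 20 tested, 11 rose and 1 fell, with a median of 0.35, led by Cars (1.12 ± 0.10) and Sars (0.89 ± 0.11). The faller was Dars (-0.35), whose call was lost without TM replicate 3 or any control library, with no filter on low counts (adjusted p = 0.054), in a fit on the 12 neuron libraries (adjusted p = 0.084) and with a GC correction, where the value was -0.078 (adjusted p = 0.69). Between 5 and 6 synthetases rose when TM replicate 3 or a control replicate was left out, 6 without TM replicate 3 or control replicate 1 and 5 without control replicate 2 or 3.

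Nearly all genes of the ER folding machinery rose. Of 25 ER chaperones and folding enzymes tested, 24 rose and 0 fell, with a median of 1.24, and the same count was obtained with each of the 6 libraries left out in turn. Hspa5 (ENSMUSG00000026864, chromosome 2, positions 34771970 to 34777547, GRCm38), which encodes BiP, the main ER chaperone and a regulator of the sensors, had 2772, 2160 and 2649 CPM in TM-treated neurons, against 508, 528 and 483 CPM in controls. It rose by 2.32 ± 0.13 (4.99-fold, adjusted p = 0.000151). Sdf2l1, a partner of BiP, had 98.7, 73.1 and 110 CPM with TM and 12.3, 12.6 and 13.2 CPM without, which was the largest change of the list (2.88 ± 0.17, adjusted p = 0.000151). Hsp90b1, the ER form of HSP90, had 983, 1149 and 1144 CPM with TM and 361, 375 and 358 CPM without (1.58 ± 0.10, adjusted p = 0.000202). Creld2 had 78.4, 61.5 and 79.9 CPM with TM and 14.9, 17.9 and 15.8 CPM without (2.18 ± 0.14, adjusted p = 0.000202). TM replicate 2 held the lowest TM level of Hspa5, Sdf2l1 and Creld2 but not of Hsp90b1. Among the others, the secreted ER factor Manf rose by 2.15 and the disulfide isomerases Pdia4, Pdia6 and P4hb by 1.81, 1.68 and 1.52. The reductase Dnajc10 (0.09) did not pass.

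Promoters are shown for a few genes that rose in the folding, amino acid and inflammatory groups. They were chosen because they held a known binding motif of regulators of these groups, so they do not show how common the motifs are. Sequences run from 250 bases before to 50 bases after the gene start of RefSeq in GRCm38.p6, 5′ to 3′ on the gene's strand, and capitals mark a motif match on either strand. In the chaperone genes Hspa5, Hsp90b1 and Creld2 the capitals are the ER stress response element, searched as CCAAT and CCACG with any 9 bases between them, to which ATF6 with NF-Y and XBP1 are known to bind.
Hspa5 (chr2:34771840-34772139, plus strand): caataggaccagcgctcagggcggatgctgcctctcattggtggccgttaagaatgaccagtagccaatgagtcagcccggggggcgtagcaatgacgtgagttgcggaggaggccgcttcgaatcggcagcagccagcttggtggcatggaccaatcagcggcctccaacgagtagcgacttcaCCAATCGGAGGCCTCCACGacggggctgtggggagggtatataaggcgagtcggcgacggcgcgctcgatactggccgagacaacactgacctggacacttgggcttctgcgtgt
Hsp90b1 (chr10:86705395-86705694, minus strand): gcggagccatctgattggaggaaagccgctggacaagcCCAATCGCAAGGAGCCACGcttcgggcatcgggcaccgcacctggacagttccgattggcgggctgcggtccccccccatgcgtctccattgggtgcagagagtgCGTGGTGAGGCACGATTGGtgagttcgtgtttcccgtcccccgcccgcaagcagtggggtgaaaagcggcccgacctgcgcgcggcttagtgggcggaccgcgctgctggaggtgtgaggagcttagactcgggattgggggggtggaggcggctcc
Creld2 (chr15:88819396-88819695, plus strand): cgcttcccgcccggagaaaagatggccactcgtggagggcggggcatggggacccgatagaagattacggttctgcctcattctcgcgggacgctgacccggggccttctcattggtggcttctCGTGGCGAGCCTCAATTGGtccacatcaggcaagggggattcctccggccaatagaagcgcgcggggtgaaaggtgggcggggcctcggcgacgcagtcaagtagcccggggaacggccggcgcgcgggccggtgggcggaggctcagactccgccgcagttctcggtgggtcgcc
In the ATF4 targets Chac1 and Asns they are the ATF4-CHOP element, searched as TGATGNAAN.
Chac1 (chr2:119350992-119351291, plus strand): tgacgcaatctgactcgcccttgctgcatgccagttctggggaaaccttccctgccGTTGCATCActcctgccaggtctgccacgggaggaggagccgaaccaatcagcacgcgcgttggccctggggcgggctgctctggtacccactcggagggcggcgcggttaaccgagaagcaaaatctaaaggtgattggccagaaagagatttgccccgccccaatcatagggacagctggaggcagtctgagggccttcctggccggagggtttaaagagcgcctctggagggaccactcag
Asns (chr6:7693160-7693459, minus strand): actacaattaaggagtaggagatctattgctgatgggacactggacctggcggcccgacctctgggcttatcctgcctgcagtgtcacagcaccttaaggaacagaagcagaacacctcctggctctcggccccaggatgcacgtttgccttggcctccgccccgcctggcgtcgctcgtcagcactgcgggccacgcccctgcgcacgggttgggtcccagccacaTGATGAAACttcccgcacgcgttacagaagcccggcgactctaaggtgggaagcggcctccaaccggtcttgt
In the chemokine gene Cxcl1 and the inhibitor gene Nfkbia they are an NF-kB motif, searched as GGGA and TTTCC with any 1 base between them.
Cxcl1 (chr5:90890995-90891294, plus strand): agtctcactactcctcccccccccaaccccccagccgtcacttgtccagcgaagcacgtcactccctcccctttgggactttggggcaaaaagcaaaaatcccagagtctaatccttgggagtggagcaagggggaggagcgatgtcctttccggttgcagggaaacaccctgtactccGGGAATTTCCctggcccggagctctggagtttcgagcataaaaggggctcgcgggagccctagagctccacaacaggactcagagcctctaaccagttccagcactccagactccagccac
Nfkbia (chr12:55492598-55492897, minus strand): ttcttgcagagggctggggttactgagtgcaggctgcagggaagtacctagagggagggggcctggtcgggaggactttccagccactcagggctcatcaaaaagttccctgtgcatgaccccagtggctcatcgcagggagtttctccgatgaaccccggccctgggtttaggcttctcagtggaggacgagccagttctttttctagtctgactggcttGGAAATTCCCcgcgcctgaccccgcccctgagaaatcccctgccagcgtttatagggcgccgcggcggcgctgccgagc

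The ER stress response element was rare. It was found in 37 of 27025 RefSeq genes with a promoter (0.137%), in 20 of 11602 genes tested here (0.172%), in 10 of 1654 genes that rose (0.605%) and in 0 of 1235 genes that fell. The 10 were Derl3, Hspa5, Creld2, Pdia6, Hsp90b1, Syvn1, Dnajc3, Calr, Alg12 and Canx, all genes of ER folding, degradation or glycosylation, and Hsp90b1 held the element at 2 positions. Of 22 chaperone and folding genes with a promoter, 7 held it (31.8%), against 2 of 19 ER-associated degradation genes (10.5%) and 0 of 15 translocation genes. The ATF4-CHOP element, which is shorter and matches more often, was found in 2.72% of genes tested, 3.93% of genes that rose and 2.59% of genes that fell, in 5 of 16 ATF4 and CHOP targets (31.2%) and in 5 of 12 aminoacyl-tRNA synthetases (41.7%). The unfolded protein response element TGACGTGG was found in 1.08% of genes tested and 1.45% of genes that rose. The NF-kB motif was found in 0.5% of genes tested, 15 of 1654 genes that rose (0.907%) and 4 of 1235 that fell (0.324%). It was found in 3 of 11 cytokine and chemokine genes and in 2 of 14 NF-kB subunits, inhibitors and adhesion targets. With only A or C allowed between its parts, 14 genes that rose and 3 that fell held it. These shares describe the letters of the window and not binding. Of all RefSeq genes with a promoter, 4.5%, 0.714% and 0.466% held the ATF4-CHOP, unfolded protein response and NF-kB motifs, in that order.

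Most genes that insert proteins into the ER rose, as did 15 of 24 that dispose of misfolded ER proteins and 15 of 29 that make or attach N-glycans. Of the 24 genes of ER-associated degradation, 0 fell, with a median of 0.57. Dnajb9, a BiP co-chaperone and XBP1 target, had 262, 272 and 308 CPM in TM-treated neurons, against 65.4, 62.3 and 62.5 CPM in controls (2.15 ± 0.10, adjusted p = 8.23e-05). Herpud1, which assembles the degradation complex, had 168, 141 and 174 CPM with TM and 43.2, 47.5 and 46.1 CPM without (1.82 ± 0.11, adjusted p = 0.000191). Derl3, a member of the channel family, was low but separate, at 8.82, 7.35 and 12.4 CPM with TM and 0.991, 1.79 and 1.26 CPM without (2.83 ± 0.30, adjusted p = 0.000949). The cytosolic ATPase Vcp (-0.36) and the mannosidase-like Edem3 (-0.46) did not pass. Of 22 translocation genes, 20 rose and 0 fell, with a median of 0.91. The translocon subunit Sec61a1 had 346, 304 and 324 CPM with TM and 135, 126 and 136 CPM without (1.30 ± 0.09, adjusted p = 0.000227), and Tram1 rose by 1.43 ± 0.09 (adjusted p = 0.000198).

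Of 29 hexosamine and N-glycosylation genes, 15 rose and 1 fell, with a median of 0.50. Members of the oligosaccharyltransferase, which moves the glycan onto proteins, were prominent, with Stt3a at 1.38 ± 0.12, Ddost at 1.31 ± 0.11 and Rpn2 at 1.13 ± 0.09. Dpagt1, the enzyme that TM inhibits, rose by 1.09. Mfsd2a, a transporter known from human cells to import TM, was the member that fell, with 31.5, 27.8 and 31.7 CPM in TM-treated neurons, against 60, 78.4 and 73.9 CPM in controls (-1.22 ± 0.13, adjusted p = 0.000963). Of 29 genes of COPII and COPI transport between ER and Golgi, 15 rose and 0 fell, with a median of 0.36. Kdelr2, a receptor that returns escaped chaperones to the ER, rose by 1.00 ± 0.10 (adjusted p = 0.000689) and the cargo receptor Surf4 by 1.09 ± 0.12 (adjusted p = 0.00091). Of 6 transcripts reported to be cleaved by IRE1, 0 fell and 2 rose, Sparc (0.68) and Pdgfrb (0.55). Neither rise passed without TM replicate 3 or without control replicate 1 or 3, and that of Pdgfrb did not pass with the GC correction.

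Genes of cell death and protein quality control outside the ER rose in part. Of 18 members of the BCL2 family and death effectors, 8 rose and 0 fell, with a median of 0.36. Besides Bbc3, the pro-apoptotic Bcl2l11 (BIM) had 23, 32.8 and 29.8 CPM in TM-treated neurons, against 9.19, 11.1 and 11.4 CPM in controls (1.43 ± 0.17, adjusted p = 0.00126). Pmaip1 (NOXA) had 54.2, 64.3 and 69 CPM with TM and 29.2, 32.7 and 29 CPM without (1.04 ± 0.12, adjusted p = 0.0013). The survival genes Bcl2 (-0.25), Bcl2l1 (0.26) and Mcl1 (0.07) did not pass. Between 4 and 5 members rose without TM replicate 3 or a control replicate, 4 without TM replicate 3 or control replicate 1 or 3 and 5 without control replicate 2.

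Of 15 cytosolic heat shock chaperones, 6 rose and 1 fell, with a median of 0.26. The inducible HSP70 genes Hspa1b and Hspa1a, near-identical copies whose counts are uncertain, rose by 1.91 ± 0.13 and 1.51 ± 0.19 (adjusted p = 0.000202 and 0.00148). Hspa8, the constitutive HSP70, had 5224, 3705 and 3942 CPM with TM, against 2546, 2473 and 2133 CPM in controls (0.85 ± 0.17, adjusted p = 0.00933), and this call was lost without control replicate 3. The nucleotide exchange factor Hspa4 was the member that fell (-0.71 ± 0.10, adjusted p = 0.00266). The number of rises was 3 without control replicate 1 and 2 without control replicate 3. Of 14 NRF2 targets, which answer oxidative stress, 10 rose and 0 fell, with a median of 0.62. Srxn1 had 660, 490 and 510 CPM with TM and 233, 217 and 199 CPM without (1.35 ± 0.14, adjusted p = 0.000752), and Nqo1 rose by 1.01 ± 0.15. Fewer NRF2 targets rose with some libraries left out, 6 without TM replicate 3 and 4, 5 and 3 without control replicate 1, 2 or 3. Of 18 autophagy genes, 6 rose and 0 fell, with a median of 0.31, among them Map1lc3b (0.66 ± 0.11) and the cargo receptor Nbr1 (0.50 ± 0.08).

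Inflammatory genes formed the other large group of rises. Of 18 innate immune receptors and adaptors tested, 8 rose and 1 fell, with a median of 0.70. Tlr2 (ENSMUSG00000027995), a receptor for bacterial lipoproteins, had 99.8, 52.8 and 59.6 CPM in TM-treated neurons, against 4.77, 7.26 and 4.59 CPM in controls. It rose by 3.68 ± 0.30 (12.8-fold, adjusted p = 0.000382), and TM replicate 1 was the highest of the TM libraries. Ticam1 and Ripk2, which carry signals of innate receptors, rose by 1.29 ± 0.14 and 1.43 ± 0.18. Left-out libraries changed this count to 4 without TM replicate 1, 3 without TM replicate 3 and 3, 4 and 5 without control replicate 1, 2 or 3. The faller, Tlr7, had 0.551, 0.445 and 0.0983 CPM with TM and 1.58, 2.23 and 0.82 CPM without, and its call was lost without TM replicate 3 or any control library and with the GC correction.

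Of 19 NF-kB subunits, inhibitors and adhesion targets, 16 rose and 0 fell, with a median of 0.83. Nfkbia, the inhibitor that NF-kB itself induces, had 91.8, 58.2 and 73.9 CPM in TM-treated neurons, against 31.1, 30.1 and 30.6 CPM in controls (1.29 ± 0.17, adjusted p = 0.00178). The subunit gene Nfkb2 had 31.2, 30.1 and 31.3 CPM with TM and 10.1, 13.9 and 12.4 CPM without (1.35 ± 0.14, adjusted p = 0.000855). Traf1, an adaptor of TNF receptors, had 36.7, 24.8 and 30.3 CPM with TM and 8.65, 7.76 and 9.95 CPM without (1.80 ± 0.18, adjusted p = 0.000743). The adhesion molecules Icam1 and Vcam1 rose by 1.25 and 0.83. Rel (-0.29), Bcl3 (-0.03) and Ikbkb (0.04) did not pass, and the number of rises was 10 without control replicate 1 or 3.

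Of 19 cytokines and chemokines tested, 9 rose and 1 fell, with a median of 0.77. The chemokines that rose attract monocytes, neutrophils or T cells. Ccl2 had 77.7, 49.6 and 59.6 CPM with TM, against 5.31, 7.6 and 7.38 CPM in controls (3.21 ± 0.22, adjusted p = 0.000202). Cxcl1 had 18.4, 14.8 and 13.6 CPM with TM and 2.07, 2.9 and 1.53 CPM without (2.85 ± 0.25, adjusted p = 0.000494). Cxcl10 had 72.7, 42.4 and 57.6 CPM with TM and 8.96, 11.6 and 10.6 CPM without (2.47 ± 0.21, adjusted p = 0.000447). Ccl2 and Cxcl10 were highest in TM replicate 1 and lowest in TM replicate 2. No TM library overlapped a control library for them, where 43% of all genes tested did not overlap. Cxcl2 was far lower, at 1.69, 1.67 and 1.13 CPM with TM and 0.0901, 0.0559 and 0 CPM without, and with so few control counts no fold is given. Tnf rose by 2.78. Il33 was the member that fell (-1.47), and its call was lost without TM replicate 3 or any control library and with the GC correction.

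**Figure D2:**
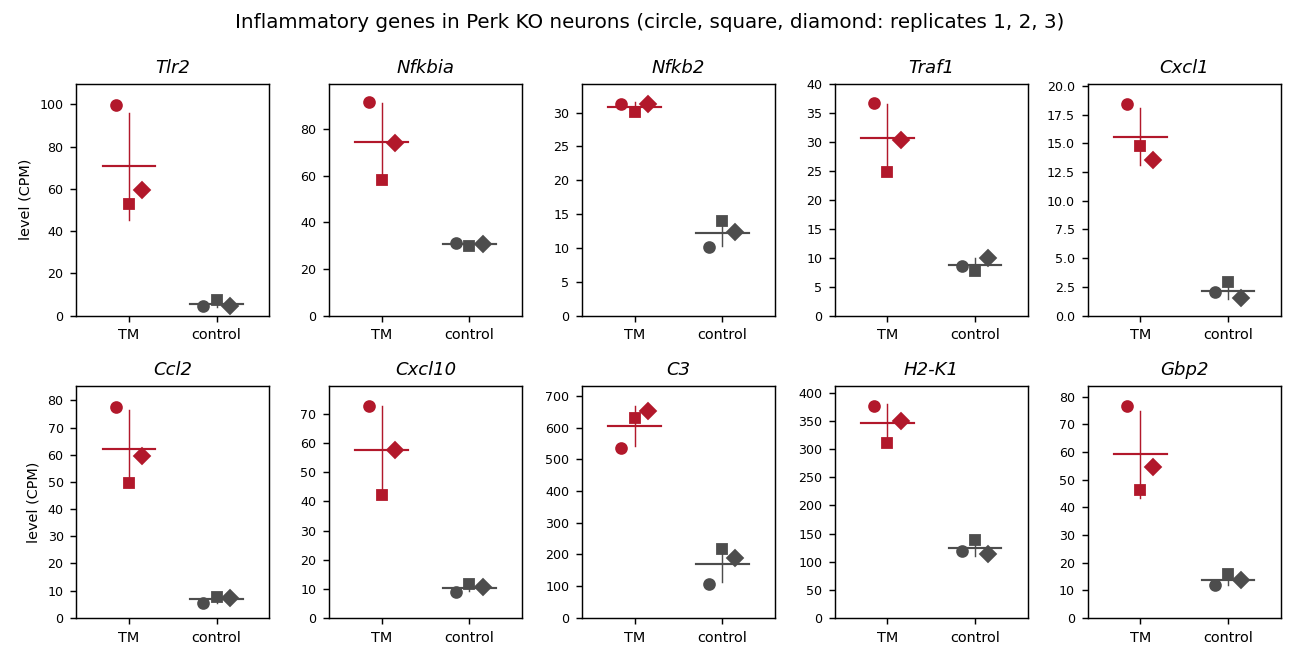
Levels (CPM, linear axis from 0) of 10 inflammatory genes in the 3 TM-treated (red, left) and 3 control (grey, right) libraries of Perk KO neurons, with the marker shape giving the replicate, the horizontal line the mean and the vertical line 1 SD. The groups do not overlap in any panel, where 43% of all genes tested did not overlap. TM replicate 1 (circle) is the highest TM library in every panel except those of Nfkb2 and C3.

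Antigen presentation and complement genes rose with these. Of 15 tested, 12 rose and 1 fell, with a median of 1.09. The MHC class I gene H2-K1 had 378, 312 and 350 CPM in TM-treated neurons, against 119, 139 and 114 CPM in controls (1.48 ± 0.12, adjusted p = 0.000382). H2-D1, a related gene with which it may share reads, had 308, 253 and 280 CPM with TM and 126, 143 and 108 CPM without (1.16 ± 0.13, adjusted p = 0.00108). Tap1 and Tapbp, which load peptides onto MHC class I, rose by 1.16 ± 0.15 and 1.03 ± 0.13. Complement component C3, a gene chosen after its values were seen, had 535, 632 and 652 CPM with TM and 106, 216 and 188 CPM without (1.83 ± 0.25, adjusted p = 0.0021). Without TM replicate 3 or control replicate 1 or 3, 7 members rose. Of 20 interferon-stimulated genes, by contrast, 1 rose and 7 fell, with a median of -0.31. Irf1, which NF-kB also induces, had 26.9, 17.7 and 23.7 CPM with TM and 7.75, 8.6 and 9.45 CPM without (1.41 ± 0.18, adjusted p = 0.00194). Ifit1, an antiviral effector, had 5.4, 3.56 and 6.88 CPM with TM and 11.4, 17.1 and 18.5 CPM without (-1.56 ± 0.28, adjusted p = 0.00636). The number of falls was 1 without TM replicate 3 or control replicate 2 or 3.

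Of 28 genes that mark reactive astrocytes, 10 rose and 1 fell, with a median of 0.74, in these neuron cultures. Steap4, a metalloreductase, had 74.4, 66.3 and 55.7 CPM in TM-treated cultures, against 5.31, 11.1 and 8.14 CPM in controls (3.01 ± 0.26, adjusted p = 0.000428). The GTPase gene Gbp2, which has close paralogs, had 76.7, 46.3 and 54.6 CPM with TM and 11.8, 15.9 and 13.8 CPM without (2.10 ± 0.21, adjusted p = 0.000752). Gfap, the classical marker of astrocyte reactivity, had 1355, 788 and 808 CPM with TM and 908, 1127 and 981 CPM without, groups that overlapped (-0.03 ± 0.22, adjusted p = 0.933). TM replicate 1 was the highest and the other TM libraries were the lowest. The member that fell, Iigp1 (-1.36), lost its call without TM replicate 3 or control replicate 2 or 3, and the number of rises was 5 without TM replicate 3 and 6 without control replicate 3. Of 17 JAK-STAT3 genes, 3 rose and 1 fell, with a median of 0.24. Over all genes tested 13.1% rose and 10.8% fell, so no change of this list is read from its counts. The cytokine receptor subunit Il6st rose by 0.80 ± 0.09 and the feedback inhibitor Socs2 fell (-1.15 ± 0.14). Socs3, a direct STAT3 target, had 5.91, 9.63 and 8.8 CPM with TM and 5.36, 10.7 and 6.78 CPM without and did not pass (0.09 ± 0.29, adjusted p = 0.862).

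Of 24 matrix proteases and inhibitors, 4 rose and 5 fell, with a median of -0.10, where 13.1% of all genes tested rose and 10.8% fell. The matrix metalloproteinase Mmp3 had 17.3, 15.2 and 23.2 CPM with TM, against 2.43, 3.13 and 3.22 CPM in controls (2.67 ± 0.22, adjusted p = 0.000385). The membrane-bound Mmp15 had 39, 41.9 and 39.6 CPM with TM and 62.1, 69 and 73.6 CPM without (-0.77 ± 0.10, adjusted p = 0.00218). The counts changed to 7 rises without TM replicate 2 and 2 without control replicate 1, and to 2 falls without TM replicate 3 or control replicate 3 and 3 falls without control replicate 1 or 2.

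Cholesterol genes fell as a group. Of 24 genes for making and taking up cholesterol, 16 fell and 1 rose, with a median of -0.87. Stard4, a sterol carrier, had 17.1, 19.8 and 21.8 CPM in TM-treated neurons, against 90.9, 72.3 and 82.5 CPM in controls (-2.07 ± 0.14, adjusted p = 0.000202). Hmgcs1, an early enzyme of the pathway, had 283, 254 and 297 CPM with TM and 878, 689 and 782 CPM without (-1.49 ± 0.12, adjusted p = 0.000382). Hsd17b7, a later enzyme, had 26.9, 24.8 and 28.6 CPM with TM and 65.8, 55.2 and 66.3 CPM without (-1.22 ± 0.12, adjusted p = 0.000677). All control libraries lay above all TM libraries for the 3 genes, which were chosen by the size or p-value of their change. Over the list, 19 of 24 genes did not overlap between the groups, where 43% of all genes tested did not. Srebf2, which encodes the transcription factor of the pathway, fell by 0.33 on the log2 scale. Ebp, a sterol isomerase, was the member that rose (0.84 ± 0.16, adjusted p = 0.00868), and Insig1 (0.33) did not pass. Of 22 glycolysis and lactate genes, 3 rose and 5 fell, with a median of -0.07. Over all genes tested 13.1% rose and 10.8% fell, so no rise of the list is read from its count. The glucose transporter Slc2a1 and the lactate carrier Slc16a1 rose, by 1.10 ± 0.09 and 1.22 ± 0.11, while the regulator Pfkfb3 and the platelet phosphofructokinase Pfkp fell, by 0.89 and 0.49 on the log2 scale. The number of falls was 2 without TM replicate 3 or control replicate 1 and 3 without control replicate 2 or 3.

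Many genes of neuronal identity and function fell, and few rose. Of 20 forebrain identity regulators tested, 10 fell and 1 rose, with a median of -0.52. Neurod6, a transcription factor of excitatory cortical neurons, had 26.8, 26.4 and 19.9 CPM in TM-treated neurons, against 138, 117 and 95.6 CPM in controls (-2.26 ± 0.17, adjusted p = 0.000313). Mef2c, an activity-regulated factor, had 50.8, 110 and 82.7 CPM with TM and 304, 284 and 348 CPM without (-1.95 ± 0.25, adjusted p = 0.00173). Lhx6, a factor of cortical interneurons, had 12.8, 18.6 and 20.4 CPM with TM and 46, 44.9 and 51.3 CPM without (-1.46 ± 0.18, adjusted p = 0.00142). A factor of excitatory neurons and a factor of inhibitory neurons were thus both lower with TM. Fezf2 was the member that rose (0.64), at an adjusted p of 0.049 that was lost with any 1 of the 6 libraries left out and with no filter, DESeq2's size factors, the replicate block (adjusted p = 0.076) or the GC correction.

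Of 34 voltage-gated ion channel genes, 13 fell and 1 rose, with a median of -0.56. The silent potassium channel subunits Kcnv1 and Kcng1 had the largest falls, Kcnv1 with 10.5, 9.46 and 10.7 CPM with TM, against 68.7, 44.5 and 52.2 CPM in controls (-2.43 ± 0.18, adjusted p = 0.000227). Kcng1 had 4.25, 6.01 and 3.93 CPM with TM and 27.2, 23.5 and 17.2 CPM without (-2.26 ± 0.23, adjusted p = 0.000752). The sodium channel Scn2a and the potassium channel Kcnq3 fell by 1.22 and 1.11 on the log2 scale, and Cacng3, a regulator of AMPA receptors in the calcium channel family, rose (0.66 ± 0.10). Of 27 neurotransmitter receptors and scaffolds, 15 fell and 0 rose, with a median of -0.64. Dlg2, a postsynaptic scaffold, had 139, 192 and 126 CPM with TM and 410, 337 and 341 CPM without (-1.25 ± 0.16, adjusted p = 0.00195). The NMDA receptor subunits Grin2b and Grin2a fell by 1.16 and 1.05 on the log2 scale, and the AMPA receptor subunit Gria1 by 0.64. Both counts moved with single libraries. Channel genes that fell were 24 without TM replicate 2, 5 without TM replicate 3 and 6, 6 and 8 without control replicate 1, 2 or 3. Receptor and scaffold genes that fell were 23 without TM replicate 2 and 9 without TM replicate 3 or control replicate 1 or 3. TM replicate 2 had a median log2 difference from the control mean of -0.20 for channels and -0.28 for receptors, where TM replicate 1 had -0.72 and -0.76 and TM replicate 3 -0.51 and -0.78.

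Of 25 presynaptic genes, 10 fell and 0 rose, with a median of -0.34. The vesicular glutamate transporter Slc17a6 had 15.6, 24 and 26.9 CPM with TM, against 77.1, 62.6 and 57.4 CPM in controls (-1.57 ± 0.21, adjusted p = 0.00209). The priming factor Unc13a had 159, 164 and 153 CPM with TM and 311, 260 and 267 CPM without (-0.82 ± 0.10, adjusted p = 0.00139), and the fusion protein gene Stx1a fell by 0.86 on the log2 scale. Several vesicle genes did not pass, among them Syp (0.24), Syt1 (-0.28) and Vamp2 (-0.04). Of 19 neuronal cytoskeleton genes, 14 fell and 0 rose, with a median of -0.52. Nefh, the heavy neurofilament subunit, had 12.3, 15.1 and 17.4 CPM with TM and 42.9, 46.5 and 48.9 CPM without (-1.63 ± 0.15, adjusted p = 0.000529). The tubulin gene Tubb3, also a neuron marker, had 342, 284 and 340 CPM with TM and 710, 679 and 664 CPM without (-1.09 ± 0.11, adjusted p = 0.000719). The number of cytoskeleton genes that fell was 9 without TM replicate 3 or control replicate 1 and 7 without control replicate 2 or 3.

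Of 16 activity-dependent immediate early genes, 6 fell and 1 rose, with a median of -0.01. Egr3 had 23.5, 21.6 and 24.6 CPM with TM, against 100, 82.6 and 91.8 CPM in controls (-1.98 ± 0.11, adjusted p = 0.000151). Homer1 fell by 1.39 and Egr1 by 0.80 on the log2 scale, and the phosphatase gene Dusp1 rose (1.22 ± 0.14, adjusted p = 0.00134). Fos had 25.7, 24.4 and 29.6 CPM with TM and 30.4, 20.2 and 24.9 CPM without, which overlapped (0.08 ± 0.17, adjusted p = 0.776). The members of this list thus differed among themselves. Camk4, an activity-dependent kinase outside the list, had 24.9, 50.6 and 16.5 CPM with TM and 145, 129 and 124 CPM without (-2.12 ± 0.35, adjusted p = 0.00492), with TM replicate 2 nearest to the controls. Among genes of other functions with large falls were Pmepa1, a membrane protein that restrains TGF-beta signals, Id3, an inhibitor of differentiation factors, and Skil, a SMAD corepressor. Pmepa1 had 9.37, 11.5 and 13.2 CPM with TM and 43.7, 69.3 and 61.2 CPM without (-2.36 ± 0.21, adjusted p = 0.000447). Id3 fell by 2.25 and Skil by 2.07 on the log2 scale.

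**Figure D3:**
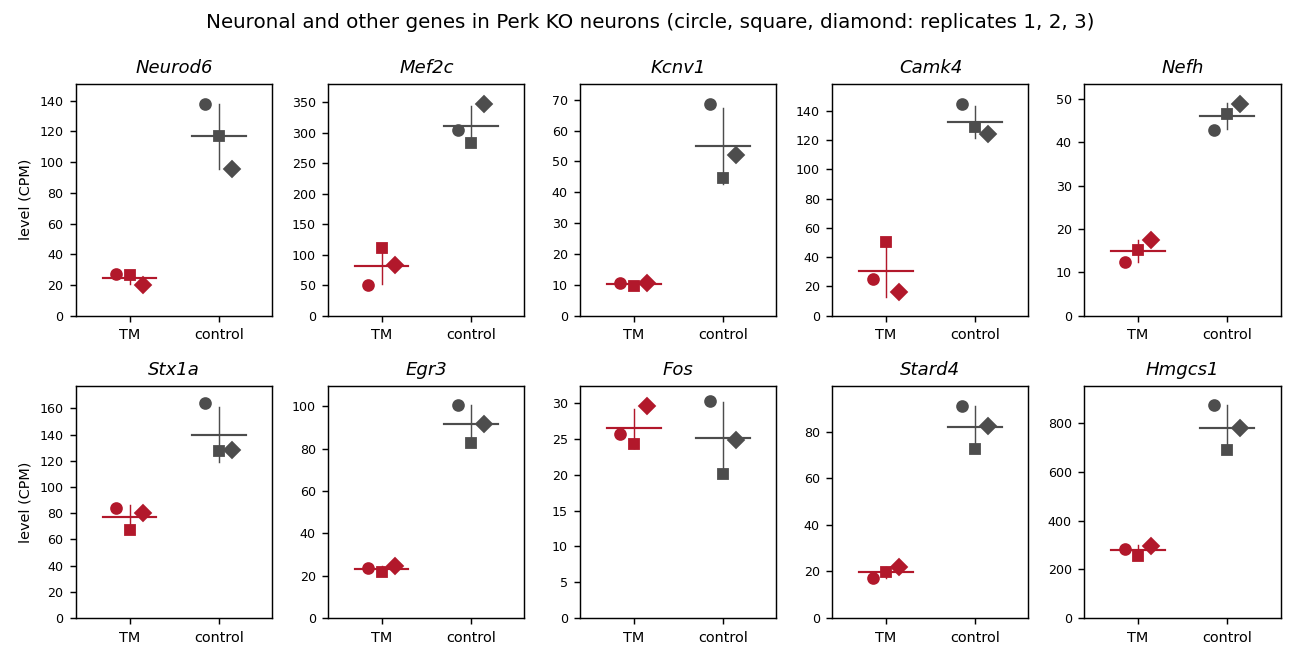
Levels (CPM, linear axis from 0) of 10 genes in the 3 TM-treated (red, left) and 3 control (grey, right) libraries of Perk KO neurons, with the marker shape giving the replicate, the horizontal line the mean and the vertical line 1 SD. TM libraries lie below control libraries in every panel except that of Fos, where they overlap. Over all genes tested, 43% did not overlap between the groups. TM replicate 2 (square) is the highest TM library for Mef2c and Camk4.

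Markers of the cell types in the cultures moved as follows. Of 12 neuron markers, 9 fell and 0 rose, with a median of -0.56, and 12 of 12 did not overlap between the groups, where 43% of all genes did not. The number of neuron markers that fell was 5 without TM replicate 3 and 4, 3 and 5 without control replicate 1, 2 or 3. Of 15 astrocyte markers, 4 rose and 2 fell, with a median of 0.27, where 13.1% of all genes tested rose and 10.8% fell. The gap junction gene Gja1 had 380, 353 and 328 CPM with TM, against 153, 150 and 168 CPM in controls (1.17 ± 0.10, adjusted p = 0.000424), and S100b and Sox9 rose by 0.91 ± 0.18 and 0.57 ± 0.10. The glutamate transporter Slc1a3 had 440, 429 and 420 CPM with TM and 1001, 999 and 949 CPM without (-1.20 ± 0.09, adjusted p = 0.00029). The 2 falls became 4 without TM replicate 1 and 1 without TM replicate 3 or control replicate 2 or 3. Microglia markers summed to 111, 75.6 and 77.2 CPM with TM and 117, 139 and 97.6 CPM without. Of 13 tested, 5 fell and 0 rose, with Cx3cr1 at 0.551, 0.39 and 0.344 CPM with TM and 1.58, 2.07 and 1.58 CPM without (-1.99 ± 0.36, adjusted p = 0.00688). The number of microglia markers that fell was 2 without TM replicate 3 and 3 without control replicate 1, 2 or 3. The sum of 13 fibroblast, mural and endothelial markers was 339, 329 and 337 CPM with TM and 497, 644 and 591 CPM without, and that of 13 oligodendrocyte lineage markers 363, 298 and 348 CPM with TM and 370, 424 and 434 CPM without. None of these markers was at 0 in all 6 libraries, while 3 oligodendrocyte and 1 microglia marker were at 0 in at least 1. The part of these differences in the changes of neuronal and inflammatory genes was not tested.

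The response was then set beside that of WT neurons, which keep PERK, by a genotype by TM interaction fitted on 12 libraries. A value above 0 means a higher log2 TM response in Perk KO than in WT neurons. Of 15939 genes tested, 4753 passed (29.8%), 2304 above 0 (14.5%) and 2449 below 0 (15.4%). In WT neurons, 51.8% of the genes tested passed, 27% higher and 24.8% lower with TM. The 6 Perk KO libraries are the same as above, so these results are not a second measurement of the Perk KO response. Of 2101 genes that rose in Perk KO neurons and were tested for the interaction, 422 had a value called below 0 and 666 called above 0. Of 1736 that fell, 227 were called above 0 and 410 below 0. Further, 248 genes rose in Perk KO neurons, fell in WT neurons and were called, and 85 did the reverse.

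ER stress genes rose less in Perk KO than in WT neurons. Of 25 chaperone and folding genes, 19 were called below 0 and 0 above, with median TM changes of 1.24 in Perk KO and 2.37 in WT neurons. Of 19 ATF4 and CHOP targets, 15 were below 0 and 0 above, with medians of 1.14 in Perk KO and 2.96 in WT neurons. Amino acid synthesis genes (11 of 14 below 0), aminoacyl-tRNA synthetases (15 of 20), amino acid transporters (8 of 11, with 1 above) and ER-associated degradation genes (14 of 24) followed the same direction. Hspa5 changed by 2.32 in Perk KO and 4.30 in WT neurons, a difference of -2.02 (adjusted p = 4e-06), and Derl3 by 2.83 and 7.42, a difference of -4.61 (adjusted p = 4.3e-06). Ddit3 differed by -1.53 (adjusted p = 0.00013) and Trib3 by -1.90 (adjusted p = 4.6e-05). For Atf3 the responses were 4.13 in Perk KO and 4.69 in WT neurons, a difference of -0.59 (adjusted p = 0.022). The transporter gene Slc3a2 rose by 2.64 in Perk KO and 2.86 in WT neurons.

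Several inflammatory and glial lists differed in the other direction, and others were split. Of 15 complement and antigen presentation genes, 10 were called above 0 and 0 below, with medians of 1.09 in Perk KO and -0.42 in WT neurons. Of 19 NF-kB genes, 8 were above 0 and 0 below (medians 0.83 and 0.11), and of 28 reactive astrocyte genes 11 were above and 3 below (medians 0.74 and -0.50). Tlr2 rose by 3.68 in Perk KO and changed by 0.84 in WT neurons, a difference of 2.81 (adjusted p = 0.00023). Nfkbia changed by 1.29 in Perk KO and -0.60 in WT neurons, a difference of 1.85 (adjusted p = 9e-05), and Ccl2 by 3.21 and 1.68 (difference 1.49, adjusted p = 0.013). Cytokines and chemokines were split, with 4 of 19 above 0 and 2 below, as were JAK-STAT3 genes, with 4 of 17 above and 2 below. Innate receptors and adaptors had 4 of 17 above and 1 below, and microglia markers 2 of 12 above and 0 below. Over all genes, 14.5% were above and 15.4% below, so no difference is read from the cytokine, JAK-STAT3, innate or microglia counts. Cxcl1 rose by 2.85 in Perk KO and 4.05 in WT neurons, a difference of -1.24 (adjusted p = 0.044), and Ptx3, a reactive astrocyte gene, rose in both with a difference of -1.98 (adjusted p = 0.00036). Of 14 astrocyte markers tested, 13 were above 0 and 0 below, with medians of 0.27 in Perk KO and -1.56 in WT neurons. Of 24 cholesterol genes, 19 were above 0 and 1 below, with medians of -0.87 in Perk KO and -1.90 in WT neurons. Of 15 cytosolic heat shock chaperones, 8 were above 0 and 0 below (medians 0.26 and -0.28).

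Most neuronal gene groups held calls in both directions. Of 27 receptors and scaffolds, 4 were called above 0 and 1 below, with medians of -0.64 in Perk KO and -0.72 in WT neurons. Of 34 channel genes, 6 were above and 2 below (medians -0.56 and -0.55), and of 19 cytoskeleton genes 4 were above and 2 below (medians -0.52 and -0.56). Of all genes tested, 14.5% were above and 15.4% below. Presynaptic genes (15 of 25 above 0, 0 below) and immediate early genes (8 of 16 above, 0 below) leaned above 0, with medians of -0.34 and -0.81 for presynaptic genes in Perk KO and WT neurons and -0.01 and -1.23 for immediate early genes. Fos changed by 0.08 in Perk KO and -2.13 in WT neurons, a difference of 2.17 (adjusted p = 0.00022). Forebrain identity regulators went the other way, with 6 of 20 below 0 and 3 above (medians -0.52 and -0.19).

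**Figure D4:**
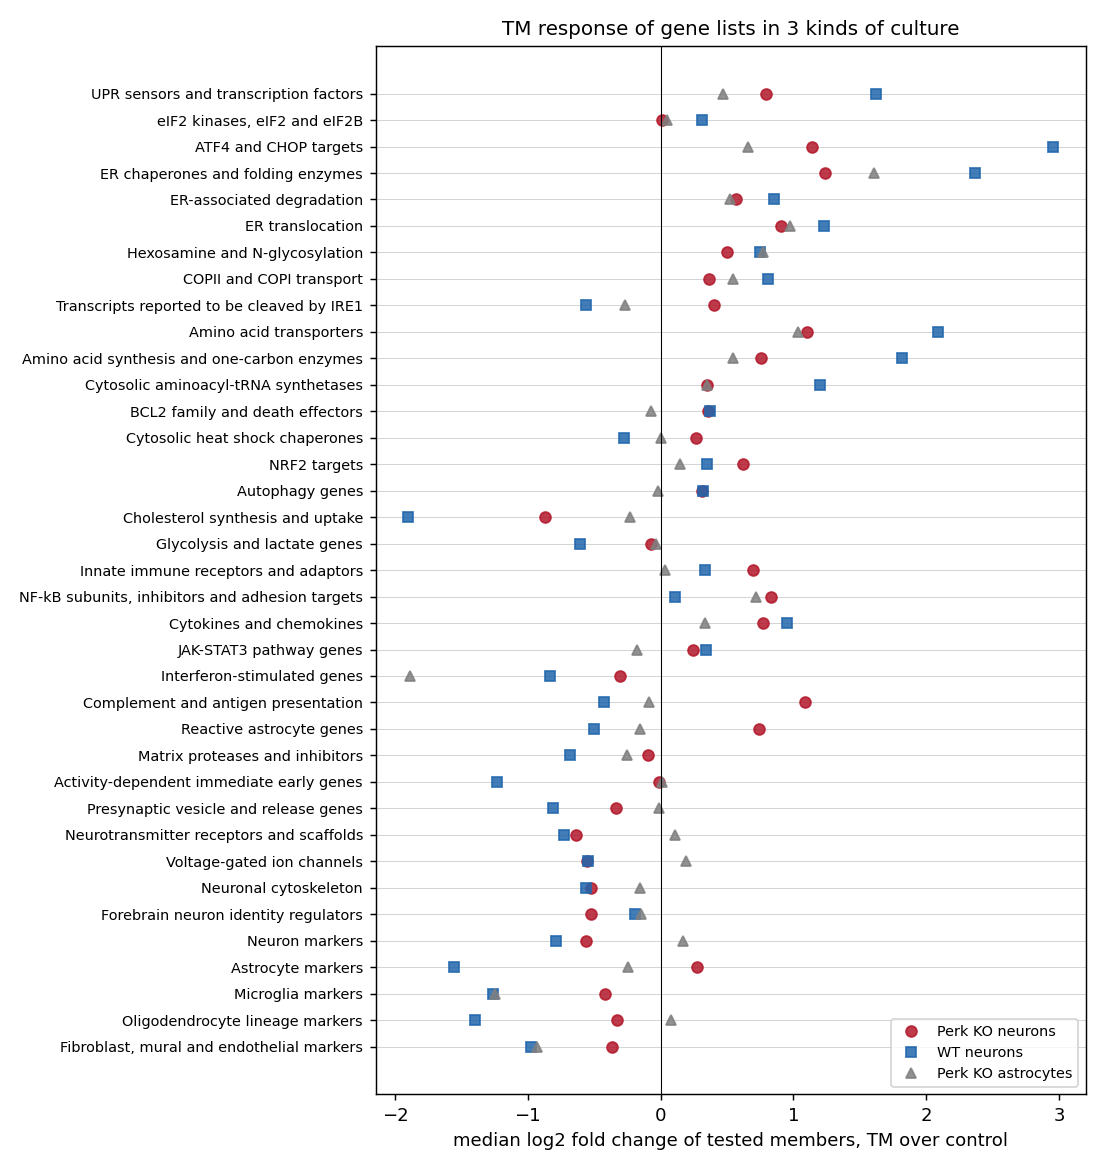
Median log2 fold change of TM over control (x axis) over the tested members of each gene list (rows) in Perk KO neurons (red circles), WT neurons (blue squares) and Perk KO astrocytes (grey triangles). ER stress and amino acid lists lie further right in WT neurons than in Perk KO neurons (ATF4 and CHOP targets 1.14 in Perk KO and 2.96 in WT neurons), while complement and antigen presentation, reactive astrocyte and heat shock lists lie right of 0 in Perk KO neurons and left of 0 in WT neurons.

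Last, the response was set beside that of astrocytes labelled Perk KO, by a cell type by TM interaction on 12 libraries, where a value above 0 means a higher response in neuron cultures. Neuron cultures also held astrocyte transcripts, so kinds of culture are compared here. The cells behind a difference were not told apart, and neurons below means these cultures. Of 16059 genes tested, 1882 passed (11.7%), 1113 above 0 (6.93%) and 769 below 0 (4.79%). In Perk KO astrocytes 10.1% of the genes tested passed, 5.55% higher and 4.6% lower with TM. The ER folding groups rose in both kinds of culture. Of 25 chaperone and folding genes, 24 rose in Perk KO neurons and 24 in Perk KO astrocytes, with medians of 1.24 and 1.61, and 5 were called below 0 and 0 above. Of 22 translocation genes, 20 rose in neurons and 19 in astrocytes, and 0 were called in either direction. Hspa5 changed by 2.32 in neurons and 2.72 in astrocytes, and the difference did not pass (adjusted p = 0.23). ATF4 and CHOP targets were called above 0 in 7 of 19 cases and below 0 in 0, with medians of 1.14 in neurons and 0.66 in astrocytes. Atf3 changed by 4.13 in neurons and 1.09 in astrocytes (difference 3.04, adjusted p = 0.00041).

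Complement and antigen presentation genes differed between the kinds of culture, with 12 of 15 called above 0 and 0 below, and medians of 1.09 in Perk KO neurons and -0.09 in Perk KO astrocytes. Of 20 interferon-stimulated genes, 8 were above 0 and 0 below, where 7 fell in neurons and 16 in astrocytes, with medians of -0.31 in neurons and -1.89 in astrocytes. NF-kB genes differed in 1 of 19 cases, with medians of 0.83 in neurons and 0.72 in astrocytes. Gbp2 changed by 2.10 in neurons and -0.88 in astrocytes (difference 2.99, adjusted p = 0.00011), and Gfap by -0.03 and -3.57 (difference 3.55, adjusted p = 0.00046). Of 18 BCL2 family and death genes, 6 were above 0 and 0 below, with medians of 0.36 in neurons and -0.07 in astrocytes. Cholesterol genes were below 0 in 7 of 24 cases and above in 0, with medians of -0.87 in neurons and -0.23 in astrocytes. Levels are not compared between the cell types.

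**Figure D5:**
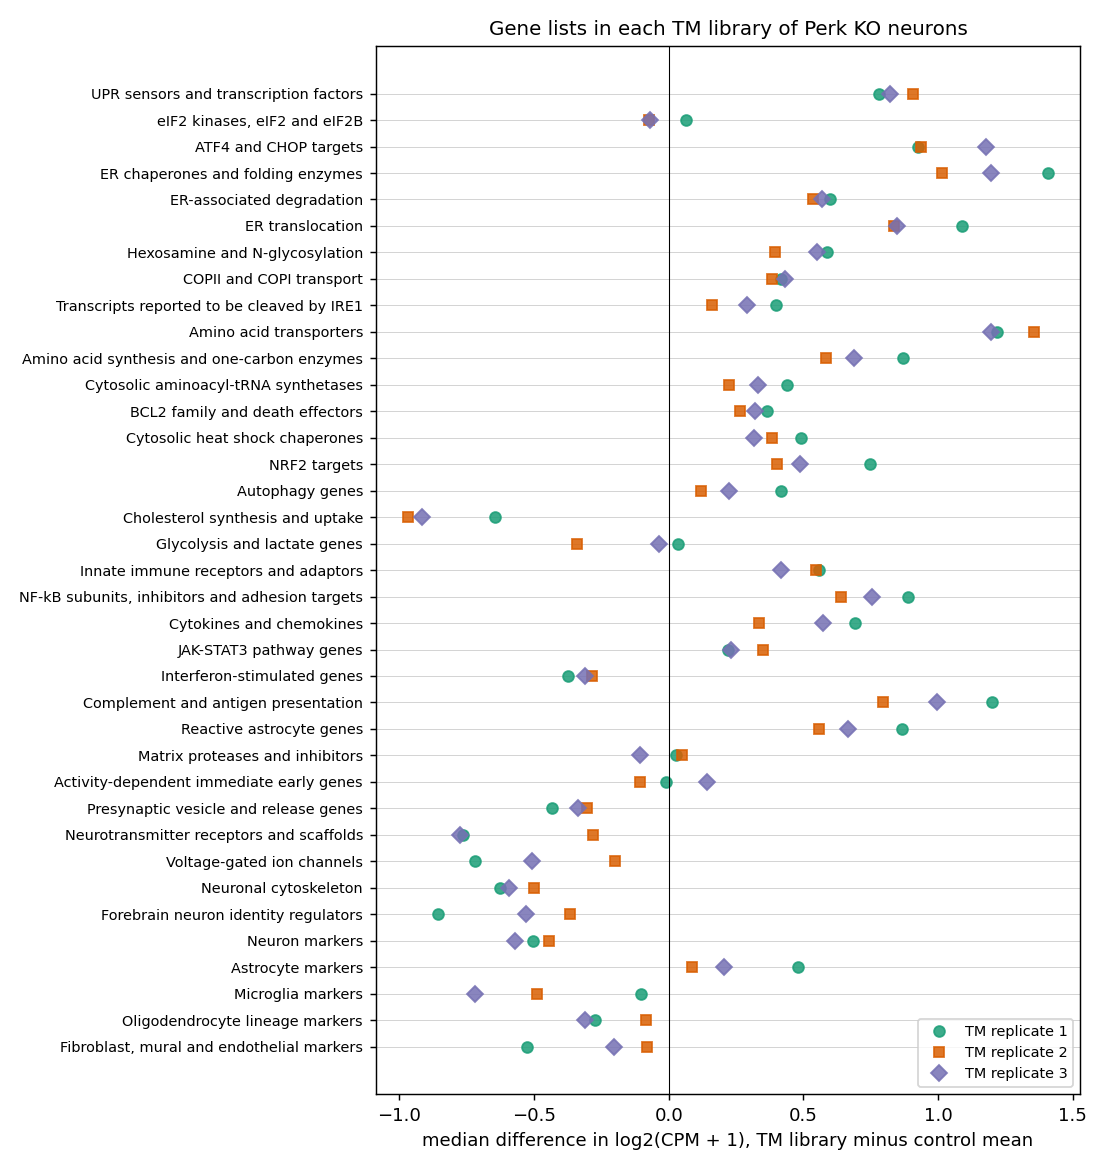
Median over tested members of each gene list (rows) of the difference in log2(CPM + 1) between each TM library of Perk KO neurons and the mean of the 3 control libraries (x axis), with TM replicate 1 as green circles, 2 as orange squares and 3 as purple diamonds. ER stress, amino acid, NF-kB and complement lists lie right of 0 and cholesterol and neuronal function lists other than the immediate early genes left of 0 in each TM library, and TM replicate 2 lies nearest to 0 for receptors and scaffolds (-0.28) and channels (-0.20).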

How the data were processed

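RNA from cultured neurons and astrocytes was sequenced with the NEBNext Ultra kit. Since strand is not marked by this kit, reads from genes on opposite strands of 1 place cannot be separated. The submitters' processing notes name fastp, HISAT2, featureCounts and the build GRCm38.p6, and versions of these tools are not given in the sources used here. Files that the authors deposited hold raw read counts per gene, with their log2 fold changes and adjusted p-values, from DESeq2 per the same notes. A further 60 normalized and FPKM columns were not used, 0 entries named no gene, and among neuron libraries held by several tables, 0 of the counts above 0 differed, with a count of at most 1 for genes listed in 1 table only.

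Counts were tested with edgeR 4.0.16 (R 4.3.3, TMM, quasi-likelihood F test), on 6 libraries for the TM response and 12 for each interaction, for genes that averaged 10 counts or more. A gene was called where its p, adjusted by Benjamini-Hochberg over all genes tested, was under 0.05, and the standard error is the log2 fold change divided by the square root of F. The TM replicates differed by 27.5 to 70.6 and the controls by 7.23 to 12.5 in chi-square per gene, so none was a copy of another. Reads without molecular identifiers are not independent molecules.

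The 32 gene lists, 5 marker lists, tests and named genes were chosen with earlier results of these data known. Named were 26 fixed genes, the 12 largest rises and 12 largest falls and the 8 largest values of each interaction in each direction, all among called genes that code for proteins, averaged 100 counts or more and, for 2 groups, did not overlap between them, up to 4 members of each list with the smallest p, and members called against the rest of a list where 5 or fewer were. Some genes that the rule names are not reported here. Other genes are list members given as examples, chosen after their values were seen. Medians per library use log2(CPM + 1). Promoters were matched by symbol for 11602 of the tested genes. The alternatives tried were leaving low counts unfiltered, size factors of DESeq2, the DESeq2 1.42.0 test, a block for the replicate number, 1 fit on the 12 neuron libraries, each library left out in turn and, chosen after seeing the data, a correction for GC content in 20 bins.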

Additional observations from a re-analysis of the deposited data

Results flagged for a closer look

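The results below are differences between the log2 TM response of Perk KO neurons and that of WT neurons or Perk KO astrocytes that passed edgeR's test of the interaction itself, each on 12 libraries. No explanation was tested for any of them.

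Between Perk KO and WT neurons, the responses of UPR sensors and transcription factors, lower in Perk KO neurons, differed by -0.78 for Eif2ak3, -1.31 for Ern1, -1.30 for Atf6, -0.68 for Xbp1, -0.68 for Atf4, -1.53 for Ddit3 and -0.59 for Atf3. Their targets differed by -1.59 for Ppp1r15a, -1.90 for Trib3, -1.49 for Chac1 and -0.68 for Asns. ER chaperone and degradation genes differed by -2.02 for Hspa5, -2.47 for Hsp90b1, -2.43 for Herpud1, -2.61 for Sdf2l1 and -1.49 for Dnajb9. Responses were higher in Perk KO neurons by 2.81 for Tlr2, 1.49 for Ccl2, 1.85 for Nfkbia, 1.24 for Gfap and 2.17 for Fos.

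Among called protein-coding genes that averaged 100 counts or more, the largest differences above 0 were 4.44 for Rnf181, 4.32 for the growth factor receptor Pdgfra, 4.22 for Ecm2, 3.97 for Fgl2, 3.96 for the activity-regulated factor Npas4, 3.81 for Rab7b, 3.80 for the deiodinase Dio2 and 3.78 for the mitochondrial glutamate carrier Slc25a18. All of these but Rnf181 fell in WT neurons. Rnf181 averaged 7.50 ± 1.74 CPM in TM-treated and 19.9 ± 28.3 CPM in control WT neurons (SD, n = 3 each), so its value rests on widely spread libraries in both genotypes. Pdgfra changed by -0.29 in Perk KO and -4.64 in WT neurons, and Slc25a18 by 0.21 and -3.60. Control levels of Pdgfra were unlike before TM, averaging 5.46 CPM in Perk KO and 47.3 CPM in WT neurons. Those of Dio2 averaged 46.1 and 11.3 CPM, and those of Slc25a18 66.4 and 60.4 CPM. The part of such unlike starting levels in the differences was not tested. The largest differences below 0 were -4.69 for the linker histone gene Hist1h1d, whose close copies make its counts uncertain, -4.61 for Derl3, -3.99 for Tes, -3.89 for Acox2, -3.46 for Steap1, -3.44 for Fibin, -3.40 for Creld2 and -3.27 for Piga. Hist1h1d changed by 0.19 in Perk KO and 4.84 in WT neurons, Tes by 0.51 and 4.47 and Acox2 by -0.0029 and 3.85. Hist1h1d, Acox2 and Steap1 averaged 21.6, 24.6 and 22.2 CPM in TM-treated WT neurons and at most 2.47 CPM in any other neuron group. These genes passed the minimum count through TM-treated WT neurons only, so their rank is not read as a result. Derl3 and Piga averaged 179 and 35.5 CPM in TM-treated WT neurons and at most 9.52 and 6.34 CPM in any other neuron group. Pdgfra averaged 47.3 CPM in control WT neurons and at most 5.46 CPM elsewhere. Ecm2 averaged 16.5 CPM in TM-treated Perk KO neurons and at most 6.58 CPM elsewhere. Their passing leaned on the group where they were high, so their rank is not read as a result either.

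Between Perk KO neurons and Perk KO astrocytes, with the same minimum, large differences above 0 were 3.55 for Gfap, 3.19 for Steap4, 3.10 for Disp3, 3.08 for Elobl, 3.04 for Atf3, 2.99 for Gbp2 and 2.74 for Padi2. Below 0, differences were -3.81 for Sla, -3.80 for Sphkap and -3.51 for Lzts1. Fitted values of -4.68 for Slitrk3, -3.59 for Ramp3, -3.33 for Clvs1, -3.29 for Lrrc7 and -3.16 for Gpr158 rest on genes that passed the minimum count through the neuron libraries only and were too low in astrocytes to be tested there, so no difference between cell types is read from them.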

How the results depend on the processing

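The number of genes called in the TM response of Perk KO neurons was 3858, and 3793 with no filter on low counts, 3873 with DESeq2's size factors, 4446 with DESeq2, 4861 in a fit on the 12 neuron libraries and 4222 with the GC correction chosen after seeing the data. With a library left out it ranged from 1972 to 5844, genes that rose from 1097 to 2791 and genes that fell from 870 to 3053. For the genotype by TM interaction these ranges were 3700 to 5721, 1728 to 2669 above 0 and 1871 to 3052 below. For the cell type by TM interaction they were 1009 to 3380, 522 to 1707 above 0 and 436 to 1673 below, and genes below 0 numbered 1360 with DESeq2, against 769, where the cause was not tested. Leaving out a library leaves 2 in its arm and fewer degrees of freedom. Of 179 named genes called, 28 lost the call without TM replicate 3, 26, 23 and 26 without control replicate 1, 2 or 3, 11 with the GC correction and at most 5 under any other setting, and 0 reversed. Directions reversed for named genes that were not called. With a library left out, Socs3 ranged from -0.12 to 0.41, Gfap from -0.34 to 0.10, Aif1 from -0.11 to 0.65, Fos from -0.061 to 0.23, Hist1h1d from -0.24 to 0.40, Acox2 from -0.18 to 0.35 and Elobl from -0.10 to 0.93. Socs3 was at -0.0030 with the GC correction, and Acox2 at 0.0045 with no filter and 0.0044 in the fit on 12 libraries. Without TM replicate 2, 47.8% of called genes were higher, where 54.8% were with all libraries.

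The labels do not say that replicate numbers mark a shared culture or day. The correlation of deviations from group means between same-numbered TM and control libraries was 0.26, -0.12 and 0.03. Of 6 libraries, 2 correlated best with their own number. With so few libraries, these values cannot decide whether same-numbered libraries shared a culture or day, and they were analysed as unpaired. With the replicate block, 3393 genes were called, 5114 in the genotype interaction and 2777 in the cell type interaction, of which 1176 were below 0, and Acox2 reversed to 0.035.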

Other observations

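Genes with large changes that belong to none of the gene lists are given here as values, with adjusted p-values from edgeR. Stab1, a scavenger receptor of macrophages and endothelium, had 1.61, 0.946 and 1.38 CPM in TM-treated Perk KO neurons, against 12.1, 13.7 and 10.6 CPM in controls (-3.19 ± 0.24, adjusted p = 0.00029). Icosl had 8.11, 8.96 and 9.63 CPM with TM and 0.495, 1.01 and 1.04 CPM without (3.40 ± 0.29, adjusted p = 0.000424). The interferon-inducible GTPase gene Gbp5 had 33.4, 17.3 and 23.5 CPM with TM and 2.88, 3.52 and 5.03 CPM without (2.71 ± 0.30, adjusted p = 0.00104). Ecm2, an extracellular matrix protein, had 15.9, 18.6 and 15.1 CPM with TM and 5.18, 6.2 and 8.36 CPM without (1.33 ± 0.20, adjusted p = 0.00327). Sla, an adaptor of receptor signalling, had 4.77, 4.4 and 5.45 CPM with TM and 19.1, 23.7 and 20.2 CPM without (-2.11 ± 0.16, adjusted p = 0.00029).

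Rnf181, a ubiquitin ligase gene, varied more among TM libraries than any of these. It had 5.71, 28.3 and 50.9 CPM with TM and 3.29, 3.35 and 3.72 CPM without (3.03 ± 0.68, adjusted p = 0.0156). Its call was lost without TM replicate 3 or any control library.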
